A study of Mus musculus with 7 samples.

Results

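The microRNA (miRNA) content of CD4+ T cells from mice with experimental myocardial infarction was described on 3 arrays, labelled CD4LAD replicates 1 to 3, out of 7 arrays in the study. The other 4 arrays held CD4+ T cells from mice with myocarditis (the EAM model) and were not analysed here. Each of the 1881 mouse miRNA names on the array was ranked by its share of the array's summed miRNA signal, and the 264 names marked as detected on all 3 LAD arrays, 14.04% of those on the array, form the repertoire described below. No group was tested against another.

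The cells came from draining lymph nodes of animals labelled as the myocardial infarction (LAD) model at day 3 after induction. The series text lists days 3 and 6 with the models in the opposite order, so the day is taken from the sample labels. CD4+ cells were enriched by positive magnetic selection with a biotinylated antibody to CD4 and streptavidin beads, and 100 ng of total RNA per sample was labelled at its 3′ end with the dye Cy3. Strain, age, sex, any sham-operated controls and the number of mice behind each array are not given in the sources used here. Nothing says that the 3 replicates came from separate animals, so the spread between them may be technical in part.

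A miRNA is cut from a hairpin precursor that yields a 5p arm and a 3p arm, and usually one of them, the guide strand, is retained by an Argonaute protein while the other, the passenger strand, is degraded. The guide pairs with messenger RNAs mainly through its seed, bases 2 to 8 counted from the 5′ end, so miRNAs with the same seed form a family with overlapping targets. In T cells, miRNAs set the threshold of antigen receptor signalling, restrain cytokine production and control the balance of proliferation and survival.

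The sequences below carry the results that follow. They are mature miRNAs from RefSeq (GRCm38.p6), written 5′ to 3′ with the seed in capitals. RefSeq held 206 of the 264 members, which took up 92.2% ± 2.75 (SD, n = 3) of the signal. The first 6 are shown because they are among the 12 most abundant names: 4 that carry no arm suffix and both arms of miR-142a.
miR-3963: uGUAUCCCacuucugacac
miR-6366: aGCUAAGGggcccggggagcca
miR-5100: uCGAAUCCcagcggugccucu
miR-3968: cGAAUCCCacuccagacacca
miR-142a-3p: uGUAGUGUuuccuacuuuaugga
miR-142a-5p: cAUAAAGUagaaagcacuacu
The next are leading members of 5 seed families whose shares on the 3 arrays are compared below.
let-7f-5p: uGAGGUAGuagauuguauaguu
let-7g-5p: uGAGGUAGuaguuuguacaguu
let-7a-5p: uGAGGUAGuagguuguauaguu
miR-15b-5p: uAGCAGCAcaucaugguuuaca
miR-16-5p: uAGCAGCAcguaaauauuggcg
miR-15a-5p: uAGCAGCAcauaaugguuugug
miR-29a-3p: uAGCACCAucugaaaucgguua
miR-29b-3p: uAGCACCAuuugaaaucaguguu
miR-29c-3p: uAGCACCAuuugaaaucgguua
miR-20a-5p: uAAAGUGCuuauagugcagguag
miR-20b-5p: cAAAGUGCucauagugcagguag
miR-181a-5p: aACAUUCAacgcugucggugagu
miR-181b-5p: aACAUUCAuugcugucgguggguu
The last are single miRNAs whose differences between the arrays are described below.
miR-21a-5p: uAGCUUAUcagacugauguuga
miR-128-3p: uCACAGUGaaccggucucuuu
miR-3063-3p: uGAGGAAUccugaucucucgcc
miR-574-3p: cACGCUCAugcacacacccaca

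The arrays differed in brightness. Summed miRNA signal was 31367 on array 1, 84838 on array 2 and 17647 on array 3, a range of 4.81-fold, whereas 4 spike-in controls differed by 0.02 in mean log2 signal and the mean of the negative controls by 1.05-fold. The scanner software marked 341, 380 and 311 names as detected on arrays 1, 2 and 3. No spot was saturated, all 3 arrays lay on 1 slide, and every name was measured by 30 spots. A share removes the difference in total signal, so a rise in one abundant miRNA lowers the share of the rest. It is a share of fluorescence and not of molecules, because probes of different miRNAs bind and label with different efficiency. The number of arrays limits the precision of every value.

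Few miRNAs made up most of the signal. The 264 members held 97.8% ± 0.814 (SD, n = 3) of it, the 10 most abundant 64.0% ± 2.89 and the 20 most abundant 75.7% ± 3.87. Adding names in order of mean share, 4 reached 50% of the signal, 20 reached 75% and 67 reached 90%. The median member had a mean share of 0.0418%, 16 members reached 1% and 79 reached 0.1%. The 4 leading names came in the same order on each array.

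miR-3963 led on each array, with 20.1%, 19.2% and 18.6% of the signal on arrays 1, 2 and 3. miR-6366 followed with 15.9%, 19.1% and 16.9%. Both were steady, with a highest share only 1.08 and 1.21 times the lowest. miR-5100 held 4.77%, 5.17% and 4.43%, and miR-3968 held 1.33%, 1.70% and 1.38%. Together these 4 names took 42.9% ± 2.08 (SD, n = 3) of all signal. miR-5100 and miR-3968 share the run cgaauccca, 9 bases long, which starts at base 2 of miR-5100 and at base 1 of miR-3968, so their seeds are the same letters displaced by a base. In the RefSeq annotation miR-5100 lies within Mief2 and miR-3968 within Trim80.

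These 4 belong to a list of 31 names that were set apart because their probes are GC-rich or can bind fragments of other RNAs. Of that list, 23 are on the array and 14 were members, with a summed share of 44.0% ± 1.87 (SD, n = 3). Whether their signal comes from miRNAs or from other RNA was not tested. Without the listed names, miR-142a-3p led with 18.9% ± 1.33 of the remaining signal, both arms of miR-142a held 22.8% ± 2.17 and the let-7 and miR-98 guides 13.7% ± 2.11.

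The most abundant name outside that list was miR-142a-3p, from a hairpin expressed across blood cells and required for normal T cell function. It held 11.3%, 10.4% and 9.98% of the signal on arrays 1, 2 and 3, a range of 1.14-fold. The array design places its probe at chr11:87756904-87756925 on the plus strand of mm9, and that of miR-142a-5p at chr11:87756870-87756887. The 5p arm held 2.84%, 1.80% and 1.85%, so array 1 stood above the other two.

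**Figure D1:**
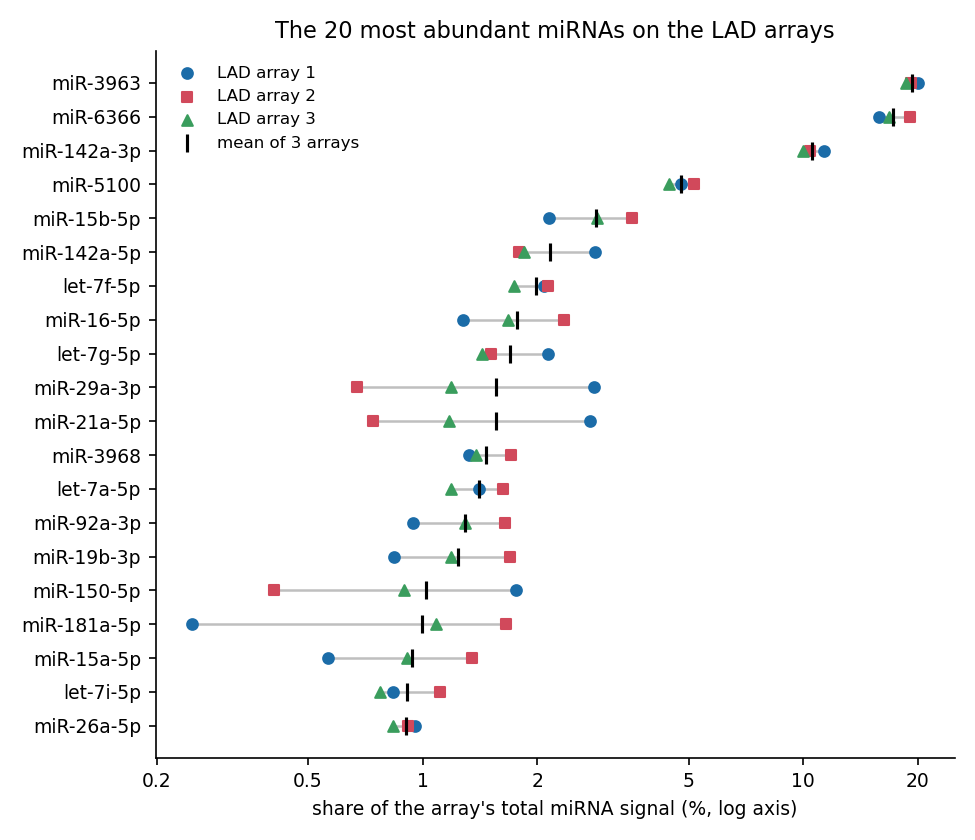
Share of the array's total miRNA signal (percent, log axis) for the 20 miRNAs with the highest mean share, with 1 symbol per LAD array, a black tick for the mean and a grey line from the lowest to the highest array. miR-3963, miR-6366, miR-142a-3p and miR-5100 lie within 1.21-fold over the 3 arrays, whereas miR-181a-5p spans 6.69-fold and miR-150-5p spans 4.32-fold.

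Grouping the 206 members with a RefSeq sequence by seed gave 175 families, of which 161 had a single member. The 14 families with 2 or more members joined 45 miRNAs and held 26.1% of the signal (23.7%, 30.6% and 23.9% on arrays 1, 2 and 3). By summed share the single-member families of miR-3963, miR-6366 and miR-142a-3p came first. In 10 of the 14 families with several members, the same array was highest for every member. Over all 264 members, share was highest on array 1 for 17.4%, on array 2 for 23.5% and on array 3 for 59.1%, and lowest on array 1 for 23.1%, on array 2 for 62.1% and on array 3 for 14.8%.

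The let-7 and miR-98 family, whose members restrain proliferation and promote differentiation in many tissues, had the highest share of the families with several members. Its 8 guides summed to 8.07%, 8.37% and 6.54%, a mean of 7.66% ± 0.979 (SD, n = 3). let-7f-5p held 2.08%, 2.13% and 1.73%, let-7g-5p 2.14%, 1.52% and 1.44%, and let-7a-5p 1.41%, 1.62% and 1.19%. Share was lowest on array 3 for 8 of 8 members and highest on array 2 for 7 of 8, let-7g-5p being the exception, but after quantile normalization array 3 was lowest for 5 of 8 and array 2 highest for 4 of 8.

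The miR-15/16 family, which represses cyclins and the survival factor Bcl2, summed to 4.03%, 7.33% and 5.53% over 5 members. miR-15b-5p led it with 2.15%, 3.55% and 2.88%, followed by miR-16-5p with 1.27%, 2.36% and 1.68% and miR-15a-5p with 0.564%, 1.35% and 0.910%. All 5, miR-322-5p and miR-195a-5p among them, had their highest share on array 2 and their lowest on array 1. The lowest array depends on the scaling: array 1 was lowest for 1 of the 5 after scaling to the median or the 75th percentile of the members and for 0 with no scaling, array 3 being lowest instead. The design places miR-15b-5p at chr3:68813700-68813718 and one of the 2 miR-16-5p sites at chr3:68813844-68813861 (mm9, plus strand), where RefSeq puts both hairpins within Smc4. The other miR-16 site and miR-15a lie within the long noncoding RNA gene Dleu2.

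A wider range appeared in the miR-29 family, whose targets in T cells include interferon gamma and the transcription factors that drive its expression. Its 3 members summed to 4.38%, 1.13% and 1.96%, a range of 3.87-fold. miR-29a-3p held 2.82%, 0.671% and 1.19%, miR-29b-3p 1.21%, 0.360% and 0.595%, and miR-29c-3p 0.355%, 0.101% and 0.170%. Array 1 was highest for each of the 3, also under the 6 other scalings. Array 2 was lowest for each in share, but array 3 was with no scaling or scaling to the median of the members. The unscaled signal of miR-29a-3p was also highest on array 1 (884, against 569 on array 2 and 210.02 on array 3) although array 2 was the brightest in all.

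The miR-17 seed family, part of the clusters that drive lymphocyte proliferation and survival, followed the miR-15/16 pattern. Its 4 members (miR-20b-5p, miR-20a-5p, miR-106b-5p and miR-93-5p) summed to 1.37%, 3.47% and 2.10%. The miR-25/92 seed family, from the same clusters, summed to 1.26%, 2.46% and 1.82% over 4 members, led by miR-92a-3p with 0.944%, 1.65% and 1.29%. The miR-19 pair summed to 1.02%, 2.16% and 1.49%. Of the 7 listed products of the miR-17-92 hairpins, 6 were members. All 6 had their highest share on array 2 (23.5% of all members) and their lowest on array 1 (23.1% of all members). Of these 6, miR-19a-3p, miR-19b-3p, miR-20a-5p and miR-92a-3p also enter the sums above. Array 2 was highest for 5 of the 6 after quantile normalization, and array 1 was lowest for 2 after scaling to the median and for 1 with no scaling. miR-17-5p itself was detected on arrays 2 and 3 only.

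The widest range among the 16 seed families with the highest mean share was that of miR-181. This family raises the sensitivity of the T cell receptor by repressing phosphatases and is abundant in thymocytes. Its 4 members summed to 0.333%, 2.37% and 1.48%, a range of 7.12-fold. miR-181a-5p held 0.248%, 1.66% and 1.08%, and miR-181b-5p 0.0258%, 0.457% and 0.242%. Array 2 was highest and array 1 lowest for all 4, and this order held under each of the 6 other scalings tried. The 2 miR-181a-5p sites lie at chr1:139863054-139863067 and chr2:38708270-38708283 (mm9, plus strand), each near a miR-181b-5p site (chr1:139863236-139863249 and chr2:38709374-38709387).

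**Figure D2:**
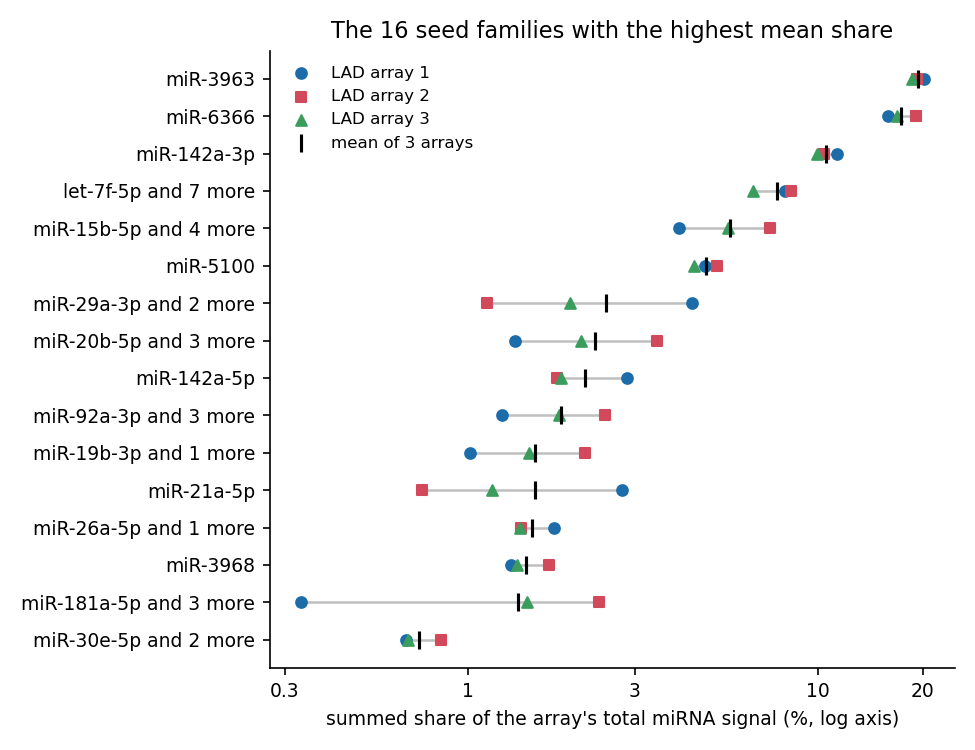
Summed share of the array's total miRNA signal (percent, log axis) for the 16 seed families with the highest mean share, named by their leading member, with 1 symbol per LAD array, a black tick for the mean and a grey line from lowest to highest. Array 2 lies to the right for the miR-15b, miR-20b, miR-92a, miR-19b and miR-181a families and to the left for miR-29a (1.13%) and miR-21a-5p (0.740%).

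Lists of miRNAs known from T cell states were set beside the repertoire. Of 12 names linked to mature or resting T cells, 11 were members, and they summed to 23.5%, 16.1% and 17.2% on arrays 1, 2 and 3. Share was highest on array 1 for 10 of the 11 (17.4% of all members) and lowest on array 2 for 8 (62.1% of all members). After scaling to the median of the members, array 1 was highest for 5, array 2 for 6 and array 3 lowest for all 11. miR-150-5p, which represses Myb and is high in mature lymphocytes, held 1.76%, 0.407% and 0.894%. miR-342-3p, encoded within Evl, held 0.697%, 0.288% and 0.470%. The group was not uniform: miR-30c-5p held 0.317%, 0.329% and 0.318%, and miR-26a-5p held 0.955%, 0.916% and 0.839%.

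Of 14 names induced when T cells are activated, 5 were members, 4 were detected on 1 array each and 5 on none. The 5 members summed to 3.34%, 0.995% and 1.51%. Most of this was miR-21a-5p, which held 2.75%, 0.740% and 1.18% and lies within Vmp1 (chr11:86397588-86397607, mm9, minus strand). miR-155-5p, a promoter of effector responses, held 0.263%, 0.122% and 0.172%. miR-146a-5p, which dampens NF-kB signalling through Traf6 and Irak1, held 0.207%, 0.0304% and 0.103%. In share these 3 had the same order of arrays as miR-150-5p, with array 1 highest and array 2 lowest. By contrast, miR-212-3p was highest on array 2 (0.0429%) and miR-7a-5p lowest on array 3 (0.0388%). The order of the 3 depends on the scaling: with no scaling array 3 was lowest for each. The unscaled miR-155-5p signal was highest on array 2 (82.6, 103 and 30.3 on arrays 1, 2 and 3).

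Of 10 names that are high in thymocytes, 8 were members. All 8 had their highest share on array 2 (23.5% of all members) and their lowest on array 1 (23.1% of all members). After quantile normalization array 2 was highest for 7, and array 1 was lowest for 7 after scaling to the median and for 6 with no scaling. The 8 members summed to 1.83%, 6.25% and 3.98%, and 7 of the 8 varied over 2-fold, as did 170 of all 264 members. miR-128-3p, encoded within R3hdm1 and Arpp21, held 0.0603%, 0.783% and 0.338%, a range of 13.0-fold. The passenger strand miR-181a-1-3p was not detected on array 1 and gave a signal of 136 on array 2 and 17.6 on array 3. The list overlaps the miR-17-92 list in miR-92a-3p. It also holds the 4 miR-181 family members, miR-20b-5p of the miR-17 family and miR-363-3p of the miR-25/92 family, so it repeats values given above.

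Markers of other cells were few. In bulk samples, fewer cells of a type and less RNA per cell cannot be told apart. Of 2 myeloid names, miR-223-3p held 0.225%, 0.0885% and 0.140% and miR-223-5p was not detected. Of 4 red cell names on the array, miR-451a held 0.102%, 0.0261% and 0.0548%, and both arms of miR-144 and miR-486a-5p were not detected on any array. The endothelial miR-126a-3p was detected on arrays 2 and 3 only, at 0.0152% and 0.0157%. Of 7 epithelial names 3 were detected, on array 2 only, summing to 0.0122% there, and none of the 6 stromal, 7 heart and skeletal muscle, 1 liver and 2 nerve names was detected on any array. In share, miR-223-3p and miR-451a were highest on array 1 and lowest on array 2, as were miR-150-5p and the miR-29 family. Unscaled, both signals were lowest on array 3: 70.4, 75.1 and 24.7 for miR-223-3p and 32.1, 22.2 and 9.68 for miR-451a on arrays 1, 2 and 3. The part of other cells in the differences between the arrays was not tested.

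Share varied over 2-fold between the highest and the lowest array for 170 of the 264 members, over 4-fold for 109 and over 10-fold for 15, and it stayed within 1.2-fold for 18. The median SD of log2 share was 0.79 and the range 0.03 to 3.72. By comparison, the scanner software's own error was 11.2% of the signal for the median member. Abundant members varied less: 20 of the 50 most abundant varied over 2-fold, against 150 of the other 214. Without array 2, 40 of the 302 names detected on both other arrays varied over 2-fold. The total signals of arrays 1 and 3 (31367 and 17647) lie within 2-fold, so a name with a constant signal cannot pass 2-fold there. How much of the lower count comes from these totals was not tested. Pearson's r of log2 share over the 264 members, which share a labelling kit and a slide and are not independent, was 0.86 for arrays 1 and 2, 0.95 for arrays 1 and 3 and 0.83 for arrays 2 and 3.

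**Figure D3:**
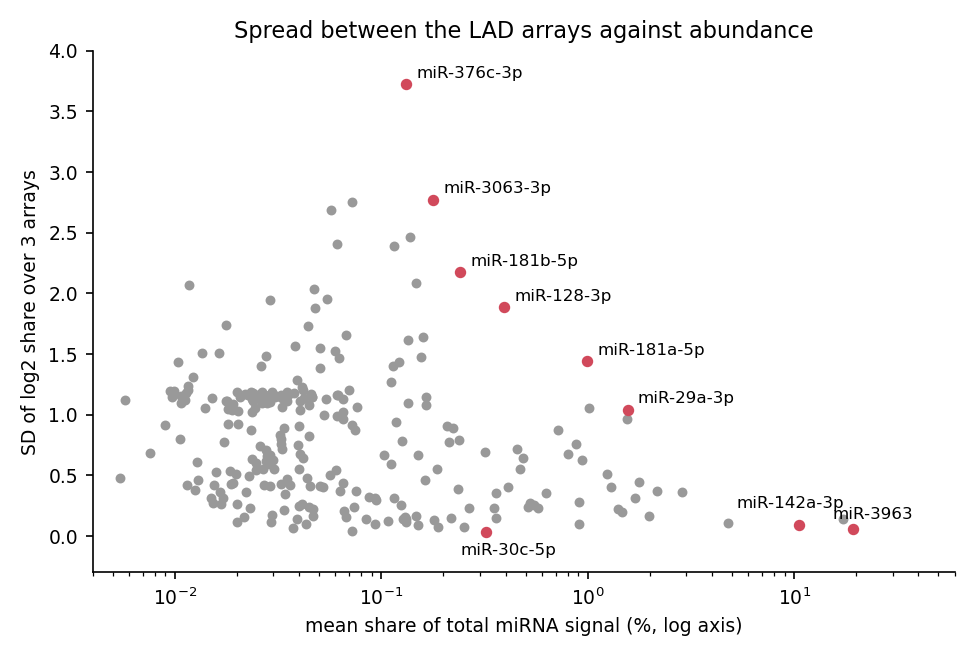
SD of log2 share over the 3 LAD arrays against mean share of total miRNA signal (percent, log axis), with 1 point per member (264) and named members in red. miR-376c-3p lies highest at 3.72 and miR-30c-5p lowest at 0.03, and a dense band of dim members lies near 1.15.

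The largest group by order of arrays held 137 members (51.9%), with the highest share on array 3 and the lowest on array 2. Most were dim, with a median mean share of 0.0326%, and 124 varied over 2-fold. Their unscaled signal changed little: its median was 9.27, 9.80 and 9.30 on arrays 1, 2 and 3, and for 96 of the 137 it stayed within 2-fold although total signal spanned 4.81-fold. A miRNA with the same signal on every array has an SD of log2 share of 1.15 here, which is the SD of the log2 totals, and 67 members lay within 0.1 of that value. For a member with a near-constant signal the order of the arrays in share is that of the totals turned round. After scaling to the median of the members array 3 was highest for 101 of the 264 members and not 156.

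Of the less frequent orders, 2 had the highest median mean shares. These were 0.209% with array 1 highest and array 2 lowest, and 0.146% with array 2 highest and array 1 lowest. The orders with array 3 lowest had medians of 0.104% (array 2 highest) and 0.0603% (array 1 highest). They held some of the most abundant names, miR-5100 and most let-7 guides in the first and miR-3963 and miR-142a-3p in the second. Array 2 was highest and array 1 lowest for 42 members (15.9%), whose unscaled medians were 21.6, 162 and 24.9. This group held the miR-15/16, miR-17 and miR-181 seed families, miR-92a-3p, miR-19b-3p and miR-128-3p. Array 1 was highest and array 2 lowest for 27 members (10.2%), with medians of 82.6, 103 and 30.3, among them miR-150-5p and miR-342-3p of resting cells, the miR-29 family, miR-155-5p, miR-21a-5p and the myeloid miR-223-3p. Array 2 was the highest for each of the miR-181 and miR-17 family members and miR-128-3p, while each of the miR-29 members, miR-150-5p and miR-21a-5p was highest on array 1, under all 6 other scalings. For the miR-15/16 family array 2 was highest for all 5 members except in normexp-corrected signal, where it was highest for 4.

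**Figure D4:**
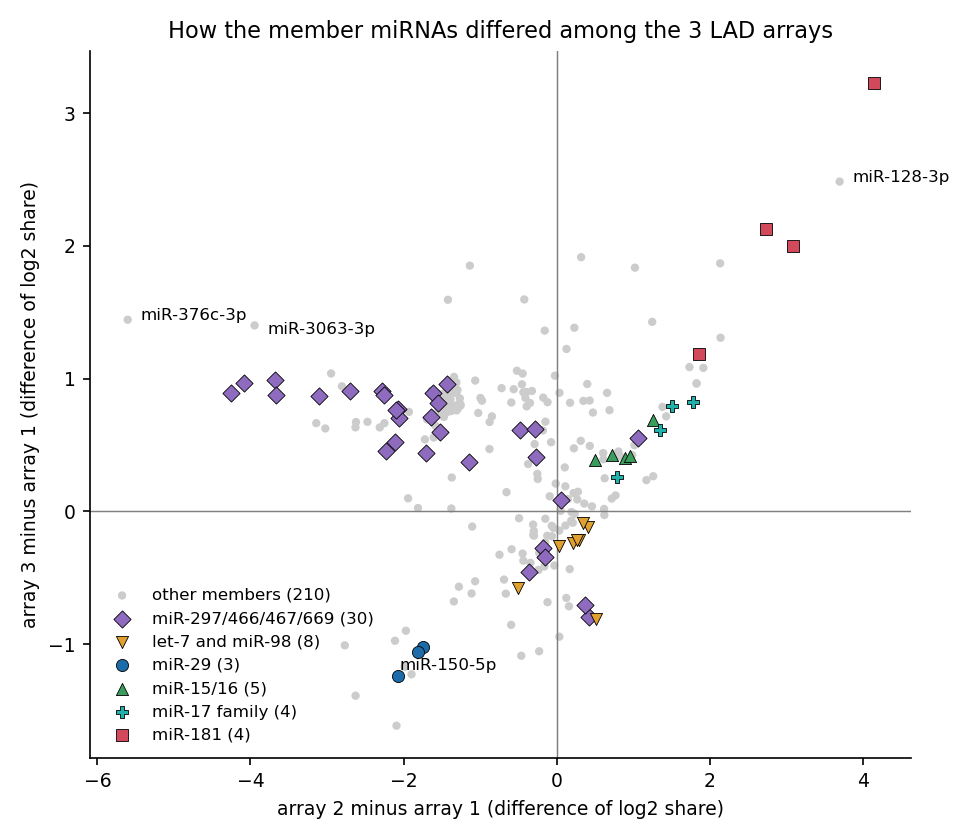
Difference of log2 share between array 2 and array 1 (horizontal) and between array 3 and array 1 (vertical) for the 264 members, with 7 groups in colour or grey and the number of members of each in the legend. The miR-181, miR-17 and miR-15/16 families lie at the upper right, the miR-29 family at the lower left, and most of the 30 members named miR-297, miR-466, miR-467 or miR-669 at the upper left.

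The members that varied most fell into 2 kinds. Of the 12 with the largest SD, miR-181b-5p was the only one highest on array 2, and the other 11 were lowest there. miR-376c-3p, from the imprinted Dlk1-Dio3 cluster (chr12:110960981-110961000, mm9, plus strand), held 0.106%, 0.00219% and 0.289%. miR-3063-3p, within Igf2bp1, held 0.145%, 0.00939% and 0.382%, and miR-574-3p, within Fam114a1, held 0.120%, 0.00956% and 0.218%. Their unscaled signals were 33.3, 1.85 and 51.0 for miR-376c-3p, 45.4, 7.97 and 67.5 for miR-3063-3p and 37.5, 8.11 and 38.4 for miR-574-3p. For these 3 the signal itself was lowest on the brightest array.

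In all, 48 members had their lowest unscaled signal on array 2. Of the 30 members named miR-297, miR-466, miR-467 or miR-669, most of which come from a repeated cluster in an intron of Sfmbt2, 16 were among these 48. Those 30 summed to 2.78%, 1.25% and 4.32%, with array 3 highest for 24 and array 2 lowest for 23. Over all 264 members array 3 was highest for 156 and array 2 lowest for 164. miR-467c-3p held 0.0747%, 0.00390% and 0.138%, miR-466g 0.135%, 0.0105% and 0.268% and miR-466f-3p 0.151%, 0.0175% and 0.275%. One of the cluster's names, miR-466b-3p, was instead among the steadiest members, with 0.0699%, 0.0730% and 0.0741%. Many of these names share long stretches of sequence, so the array may not separate them.

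The mature sequences of the order groups differed in composition. Cytosine made up 35.02% of bases on average in the 99 sequences with array 3 highest and array 2 lowest, against 21.5% in the 39 with array 2 highest and array 1 lowest and 19.7% in the 23 with array 1 highest and array 2 lowest. These are means over members matched to RefSeq, given as a description. Separate probes of a miRNA mostly kept its order of arrays: of 262 members with 2 or more probes above 0, all probes had the order of the miRNA in 216. The probes enter the total signal of the miRNA and read the same labelled RNA, so this is no independent check of the order.

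The 8 steadiest members were miR-30c-5p, miR-466b-3p, miR-3963, miR-6412, miR-3473g, miR-494-3p, miR-142a-3p and miR-22-3p. miR-30c-5p ranged over 1.04-fold and miR-142a-3p over 1.14-fold. This steadiness is relative to the total of the array: the unscaled signal of miR-30c-5p was 99.5, 279 and 56.1.

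Both arms were on the array for 777 arm pairs, and both were members for 21. A ratio of arms compares 2 sets of probes, so its size depends on the probes. Its change from array to array is free of this only where both arms' signals follow the amount of RNA. The 5p arm was brighter by the mean log2 ratio in 13 pairs and the 3p arm in 8. The sign was the same on all 3 arrays in 9 of the first and 4 of the second, and it differed between arrays in the other 8. The median SD of the log2 ratio over arrays was 1.11.

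The ratios farthest above 0 belonged to let-7 and miR-30 hairpins. let-7f-5p over let-7f-1-3p had a log2 ratio of 6.02, 7.51 and 4.96 on arrays 1, 2 and 3, let-7d 5.34, 7.06 and 5.23, and miR-30b 5.25, 7.77 and 3.84. miR-30c-5p over miR-30c-1-3p gave 6.27, 4.49 and 5.31, and let-7b 3.58, 5.54 and 2.67. In each of these the guide is the 5p arm. Some of the 3p arms were dim. The unscaled signal on arrays 1, 2 and 3 was 4.15, 4.33 and 2.37 for let-7d-3p and 3.45, 1.21 and 3.98 for miR-30b-3p. For miR-30c-1-3p it was 1.29, 12.4 and 1.42. The size of these ratios therefore rests on low 3p signals. The let-7f-5p signal can also come from a second hairpin, let-7f-2, whose 3p arm was not detected on any array. The same holds for miR-30c-5p and its second hairpin, miR-30c-2.

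The ratios farthest below 0 belonged to miR-466h (mean log2 ratio -3.16), miR-467a (-2.95) and miR-142a (-2.32 ± 0.29, SD, n = 3). For miR-142a the values were -1.99, -2.54 and -2.43, so the 3p arm gave 3.99, 5.80 and 5.39 times the signal of the 5p arm. miR-140, encoded within Wwp2, had the steadiest ratio of the 21, at -0.59, -0.40 and -0.50, and miR-7a was next with 1.66, 1.80 and 1.43. The SD of the log2 ratio was lowest of the 21 pairs in these 3, at 0.29 for miR-142a, 0.09 for miR-140 and 0.18 for miR-7a. The miR-7a-5p signal can also come from a second hairpin, whose 3p arm, miR-7a-2-3p, was not detected on any array.

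Other pairs did not keep their ratio. miR-467c gave -1.17, 2.94 and -2.41, with an unscaled 5p signal of 10.4, 25.4 and 4.60 and a 3p signal of 23.4, 3.31 and 24.4, so the 3p arm was lowest on the array where the 5p arm was highest. The log2 ratio of miR-467e was 0.50, 3.81 and -0.84, and that of miR-574 was 0.77, 3.54 and 0.58. In 19 of the 21 pairs the ratio was highest on array 2, the exceptions being miR-142a and miR-30c. In 12 of these 19 the unscaled 3p signal stayed within 2-fold on arrays that spanned 4.81-fold in total signal, for example 10.1, 9.94 and 9.84 for let-7f-1-3p, and in 5 others the 3p signal was lowest on array 2. Where the 3p signal stays nearly level, the ratio changes mainly with the 5p signal. The count of 19 is no measure of a change in arm use, which was not tested. The pairs with an arm of a miR-466 or miR-467 name numbered 6.

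**Figure D5:**
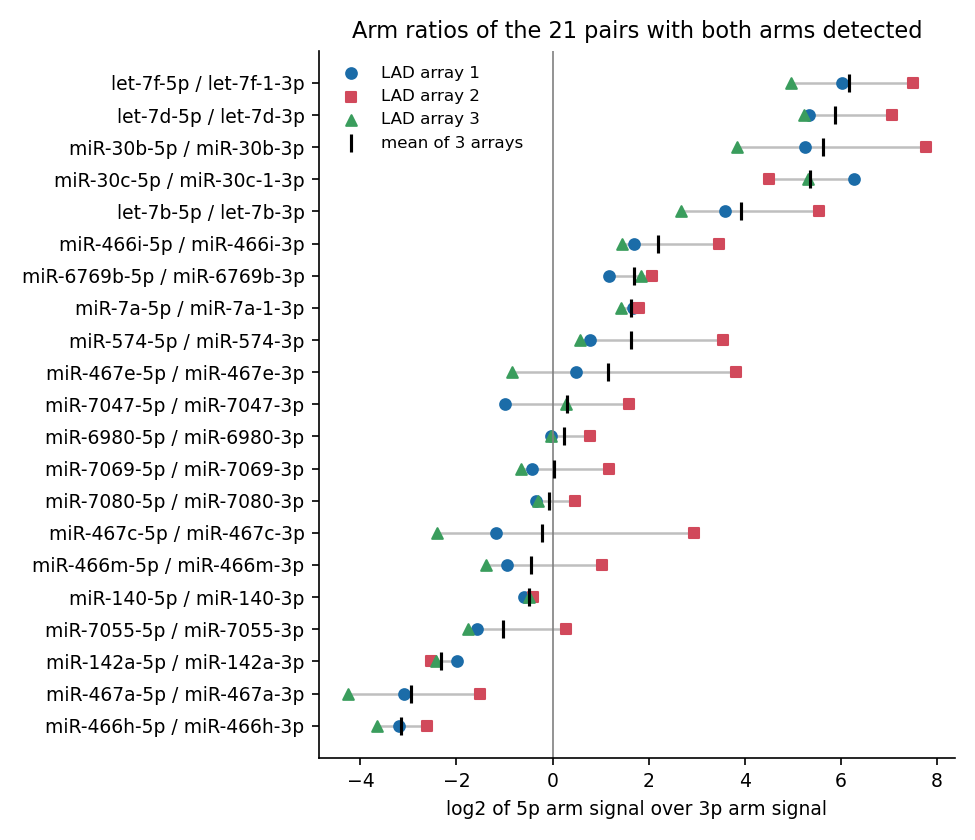
Log2 of the 5p over the 3p arm signal for the 21 pairs with both arms detected on all 3 LAD arrays, with 1 symbol per array, a black tick for the mean and a grey line from lowest to highest, and 0 marking equal signal. Array 2 lies to the right in 19 pairs, the miR-142a pair lies between -2.54 and -1.99, and miR-467c spans from -2.41 to 2.94.

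In a further 183 pairs a single arm was a member, the 5p arm in 78 and the 3p arm in 105, and in 148 of them the other arm was not detected on any array. This held for the other arms of miR-150-5p, let-7g-5p, miR-15a-5p, miR-29a-3p and miR-21a-5p. miR-15b-3p was detected on arrays 1 and 2 only, with a signal of 7.14 on array 2 against 3009 for miR-15b-5p.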

How the data were processed

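CD4+ T cell RNA from 3 LAD arrays was read from Agilent scanner files. Intensity values (total signal per miRNA name, its error, mean spot signal) and detection marks were made by the authors with Feature Extraction 10.7.3.1, per the file headers, and a name not detected has the deposited value 0.1. The authors' deposited log2 value table is listed with RMA in the submitters' processing notes, and its column medians over 1881 names were 5.56, 5.55 and 5.55. It was used as an alternative, out of log2; how RMA summarised and scaled probes is not given in the sources used here.

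Shares, seed families, arm ratios and SDs were computed in Python 3.11.15 with pandas 2.3.3 and checked on simulated data. Alternatives used limma 3.58.1 (normexp, with no added offset). No test was run.

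Members and lists were chosen with earlier results of these data known. Named were the 20 highest mean shares, 10 leading seed families, 6 arm pairs at each end and 6 by SD, 12 most and 8 least variable members, and up to 4 per list. Other names in a group were chosen after their values were seen. Host genes come from RefSeq (GRCm38.p6); probe positions are those of the array design (mm9).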

Additional observations from a re-analysis of the deposited data

How the results depend on the processing

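Leaving out each array in turn gave 269 to 302 detected names, a share of the 10 most abundant of 63.5% to 65.7%, a leading family (miR-3963) at 18.9% to 19.7%, 13 to 19 pairs with the 5p arm brighter, 40 to 147 members over 2-fold (lowest without array 2) and a median SD of log2 share of 0.53 to 0.76. Requiring at least 0.5 of a name's spots to be well above background left 155 members. The share of the 10 most abundant was 48.0% without the fragment-like names, 75.7% for the 20 most abundant, 51.2% in normexp-corrected signal and 42.3% in the authors' table, where miR-3963 held 15.4% and 11.9% respectively. Counting pairs with either arm a member gave 90 with the 5p arm brighter, among the 21 pairs with both arms and 183 with a single one. Of the 183, the 5p arm was the member in 78 and the 3p arm in 105. In 148 of them the other arm was at the not-detected value on every array, so the sign was set by which arm was detected. The authors' values gave 68 members over 2-fold, and the median SD was 0.31 there and 0.47 after quantile normalization. Dividing by spots changed nothing, since every name has 30; dividing by probes was chosen after seeing the data. Of the 12 most variable members, 2 kept that place with no scaling and 11 with the 75th percentile. No arm ratio larger than its SD changed sign under the alternatives. The cause of these shifts was not tested. Low signal limits the dim members: the 137 with array 3 highest and array 2 lowest had a median unscaled signal of 9.27 to 9.80.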

Other observations

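Beyond the 264 members, 171 names were detected on only 1 or 2 of the arrays. Array 2, the brightest, alone detected 85 of them, arrays 1 and 3 together 38, arrays 1 and 2 together 26, array 1 alone 13, arrays 2 and 3 together 5 and array 3 alone 4. The miR-297, miR-466, miR-467 and miR-669 names make up 61 of the 1881 on the array and 13 of these 171. The 38 names seen on arrays 1 and 3 but not on the brightest array included 9 of this kind. Among them miR-669e-3p gave an unscaled signal of 29.8 on array 1 and 33.0 on array 3, and miR-467b-3p gave 22.4 and 23.9. miR-302c-3p, a name best known from embryonic stem cells, gave 14.4 and 16.5 on the same 2 arrays.

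The 5 names on arrays 2 and 3 but not on array 1 were miR-181a-1-3p, miR-17-5p, miR-126a-3p, miR-7028-5p and miR-7036a-5p. miR-17-5p, the name-giving product of the miR-17-92 hairpins, gave a signal of 31.4 on array 2 and 2.73 on array 3.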
